A study of Mus musculus with 2 samples.

Results

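Aerocyte-like capillary endothelial cells, the thin-walled capillary cells that lie against the alveolar surface, numbered 3770 of 15578 filtered barcodes in a pair of mouse lung libraries. They made up 1701 of 7161 barcodes in the p47phox-KI (KI) library and 2069 of 8417 in the wild-type (WT) library. They were chosen by raw counts of unique molecular identifiers (UMIs, which count captured transcripts). Each cell held at least 3 UMIs of the endothelial genes Cldn5, Cdh5 and Pecam1, and no UMI of Epcam or Ptprc, which mark epithelium and leukocytes. It held at most 1 UMI each of the fibroblast pair Col1a2 and Col3a1, of the arterial pair Gja5 and Bmx, and of Vwf. It held at least 3 UMIs of Car4, Ednrb and Fibin together, and more of these than of the general capillary genes Plvap and Gpihbp1.

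Both libraries came from C57BL/6 lungs labelled with acute lung injury, 1 p47phox-KI and 1 WT, and were made from viable sorted cells with 10x 3′ chemistry after a CD45.2 stain. p47phox is the product of Ncf1, a subunit of the NADPH oxidase, and the series sets the genotypes beside each other cell by cell. The labels name neither the modification of Ncf1, the agent of injury, the sort gate nor the number, sex or age of the animals. With 1 library per group, genotype cannot be told apart from preparation, no test was possible, and every interval given is a 95% counting interval.

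Lung capillaries hold a pair of endothelial cell types. Aerocytes are large, branched cells specialised for gas exchange, which carry the carbonic anhydrase Car4, the endothelin receptor Ednrb, the VEGF receptor Kdr and the peptide apelin (Apln). General capillary cells carry the apelin receptor, Plvap and Gpihbp1, and serve as progenitors in repair.

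Aerocytes were 42.9% [41.35, 44.46] of 3965 endothelial barcodes in the KI library and 43.54% [42.12, 44.96] of 4752 in the WT library (exact Clopper-Pearson). General capillary cells were chosen by the same conditions with Plvap and Gpihbp1 in the lead. They were 31.6% [30.16, 33.07] (1253 cells) in the KI library and 27.06% [25.8, 28.35] (1286 cells) in the WT library. The aerocyte intervals overlapped, while those of general capillary cells did not. All shares are of sorted barcodes and not of the lung. Aerocytes held a median of 3873 UMIs and 1945 genes in the KI library, and 3394 UMIs and 1751 genes in the WT library. Their median mitochondrial share was 3.545% in KI and 3.696% in WT.

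Summed aerocyte UMIs came to 7218803 in KI and 7725224 in WT, and levels are given as CPM, a gene's share of these sums on the usual counts-per-1e6 scale. A haemoglobin UMI was found in 15.58% of KI aerocytes and 1.837% of WT aerocytes. Summed markers of type 2 alveolar cells, whose RNA is abundant in this tissue, stood at 961.2 CPM in KI and 1833 CPM in WT aerocytes. Of these 10 markers, 9 were more than 0.5 lower in KI on the log2 scale, beside 7.76% of all genes measured in aerocytes. The share of cells had the opposite order: a UMI of any of them was found in 91.77% of KI and 84.92% of WT aerocytes. As a percentage of each cell's UMIs, they had a median of 0.06429% in KI and 0.05172% in WT aerocytes. The 90th percentile was 0.2037% in KI and 0.1655% in WT, so the higher WT sum was not carried by the typical cell. In general capillary cells the same markers summed to 715.9 CPM in KI and 568.8 CPM in WT. There 6 were more than 0.5 higher in KI and none lower, beside 1636 higher and 875 lower of 11660 genes. The 7 neutrophil markers together stood at 2.493 CPM in KI and 139.5 CPM in WT aerocytes, with Csf3r, Ly6g and Mmp8 at 0 in KI and none at 0 in WT. Their part in the ratios below was not tested. Of the barcode sequences, 30 occurred in both libraries, and 3 aerocytes of each library carried one. Ncf1 itself gave 1 UMI in KI and 5 UMIs in WT aerocytes.

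The markers used to choose the cells are a description and not a finding. The sum of Car4, Ednrb and Fibin had a median of 21 UMIs in KI and 22 in WT aerocytes. All 3 transcripts were found in 83.83% of KI and 85.21% of WT aerocytes, and 1 alone in 3.41% and 2.9%. Car4 (chromosome 11, 84957786 to 84966044, plus strand, GRCm38), which speeds the exchange of carbon dioxide, stood at 2586 CPM in KI and 3144 CPM in WT. Ednrb (chromosome 14, 103814625 to 103844402, minus strand), the endothelin B receptor, stood at 1523 CPM in KI and 1729 CPM in WT. Fibin (chromosome 2, 110360917 to 110363183, minus strand), a secreted protein, stood at 1971 CPM in KI and 2101 CPM in WT.

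At the limit of the rule, 71 KI and 69 WT cells had a marker sum of exactly 3 and were inside. Their Apln level was 170.4 CPM in KI and 152.6 CPM in WT. Another 65 KI and 63 WT cells had a sum of 2 above the general capillary sum and were outside, with Apln at 244.4 CPM in KI and 177.3 CPM in WT. Apln was thus higher outside the limit than inside it in both libraries, at sums small enough to leave a wide counting error. Kdr had the opposite order, at 932.8 CPM in KI and 975 CPM in WT cells inside, against 539.3 CPM in KI and 709 CPM in WT cells outside. Cells with equal sums, 6 in KI and 11 in WT, were also outside.

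Markers that the rule did not use followed the name. Apln (chromosome X, 48025146 to 48034853, minus strand), the apelin ligand, stood at 335.9 CPM in KI and 444.3 CPM in WT aerocytes, against 42.82 CPM in KI and 32.73 CPM in WT general capillary cells. Kdr (chromosome 5, 75932827 to 75978458, minus strand), the main VEGF receptor of endothelium, stood at 1335 CPM in KI and 1790 CPM in WT aerocytes, against 230.7 and 256.9 CPM in KI and WT general capillary cells. Tmeff2, a membrane protein, stood at 156 CPM in KI and 182.9 CPM in WT aerocytes, against 8.396 and 6.772 CPM in KI and WT general capillary cells. Both libraries therefore show the same order between the cell types for all 3 genes. At least 1 of these 3 transcripts was absent from many single cells: all 3 were found in 28.63% of KI and 31.8% of WT aerocytes, and none in 3.469% of KI and 2.417% of WT aerocytes. These genes come from the cells that were divided by the rule, so the contrast describes the division and is no independent test of it.

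**Figure D1:**
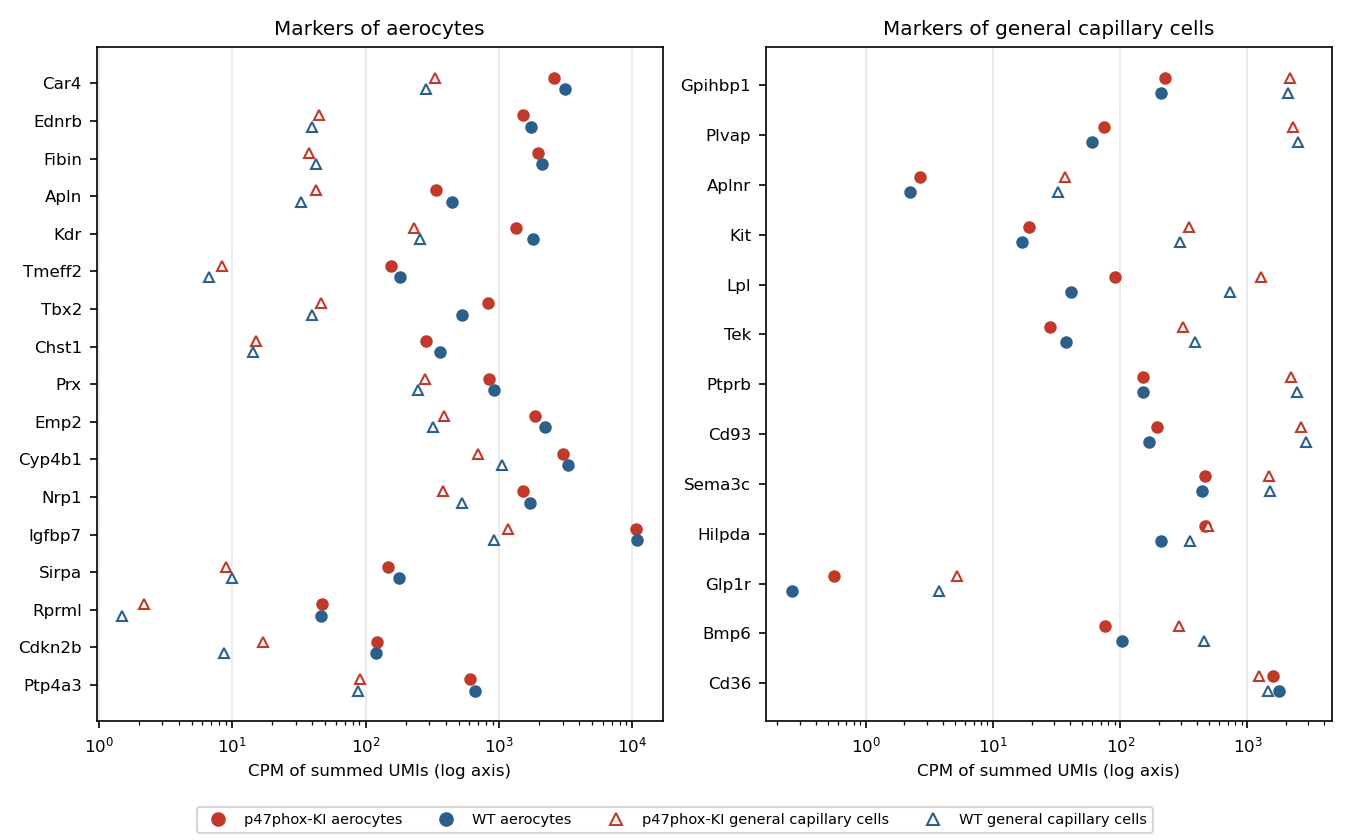
Levels of aerocyte and general capillary markers, as CPM of summed UMIs on a log axis, in aerocytes (filled circles) and general capillary cells (open triangles) of the p47phox-KI (red) and WT (blue) libraries, 1 library per point. Aerocyte markers lie to the right in aerocytes of both libraries; Tbx2 is the aerocyte marker that stands more than 0.5 on the log2 scale higher in KI than in WT aerocytes.

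Beyond the markers, aerocytes and general capillary cells differed in many genes in the same way in both libraries. Of 12845 genes with at least 20 UMIs, 587 (4.57%) were more than 1 higher in aerocytes on the log2 scale in both libraries, and 1239 (9.65%) were more than 1 lower in both. A ratio is the log2 of aerocyte CPM over general capillary CPM, with 0.5 counts added to each sum. Since the cells were divided by genes of these same cells, the counts are descriptive.

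Among the highest ratios were cell-surface and secreted proteins. Xpnpep2, a membrane aminopeptidase that cleaves bradykinin, stood at 206.5 CPM in KI and 189.9 CPM in WT aerocytes, against 6.381 and 5.643 CPM in KI and WT general capillary cells (log2 ratios of 5.00 in KI and 5.05 in WT). Gpnmb, a transmembrane glycoprotein best known from macrophages and melanocytes, had ratios of 5.14 in KI and 5.96 in WT, and Clec4g, a C-type lectin of sinusoidal endothelium, 5.28 and 4.92. Ncam1, a neural cell adhesion molecule, had ratios of 4.72 in KI and 4.61 in WT. Chst1, a keratan sulfate sulfotransferase, and Pcolce2, an enhancer of collagen processing, had ratios of 4.22 and 4.34 in KI and of 4.64 and 4.24 in WT. Egflam, a matrix protein of synapses, had 4.15 in KI and 4.42 in WT, and Rbfox3, a splicing factor used as a neuronal marker, 4.16 and 4.48. Begain, known from synaptic scaffolds, stood at 77.44 CPM in KI and 91.39 CPM in WT aerocytes, against 3.862 and 1.693 CPM in KI and WT general capillary cells. The remaining genes of the highest 15 were Ms4a8a, Rasa4, Frrs1, Scrn1, Tmeff2 and the antisense gene Tbx3os1, with ratios between 4.02 and 6.33. Tbx3os1 lies beside Tbx3, and strand-specific counting is not stated in the sources used here, so its reads may not be separable from those of its neighbour.

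The lowest ratios belonged to genes that general capillary cells use. Ptprb, the phosphatase of the vascular endothelial cadherin complex, stood at 151.3 CPM in KI and 150.2 CPM in WT aerocytes, against 2188 and 2436 CPM in KI and WT general capillary cells (−3.85 in KI and −4.02 in WT). Lpl, which encodes lipoprotein lipase, had ratios of −3.84 in KI and −4.16 in WT, and Cd93, a receptor in vessel growth, −3.79 and −4.11. Lyve1, the hyaluronan receptor used as a lymphatic marker, was also found in both capillary types: it stood at 527.4 CPM in KI and 533.3 CPM in WT aerocytes, against 4002 and 3656 CPM in KI and WT general capillary cells. Tmem252, Epb41, Tmem2, Pde3a and Tmsb10 were also among the lowest 10, with ratios between −4.40 and −2.65. How far their aerocyte levels rested on few cells varied between the genes. The 18 KI aerocytes with the most Cd93 UMIs held 33.43% of that gene's UMIs, and the 21 such WT aerocytes held 35.24%. For Lyve1 these shares were 18.89% in KI and 14.83% in WT, and 797 of the 1701 KI and 987 of the 2069 WT aerocytes held it.

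**Figure D2:**
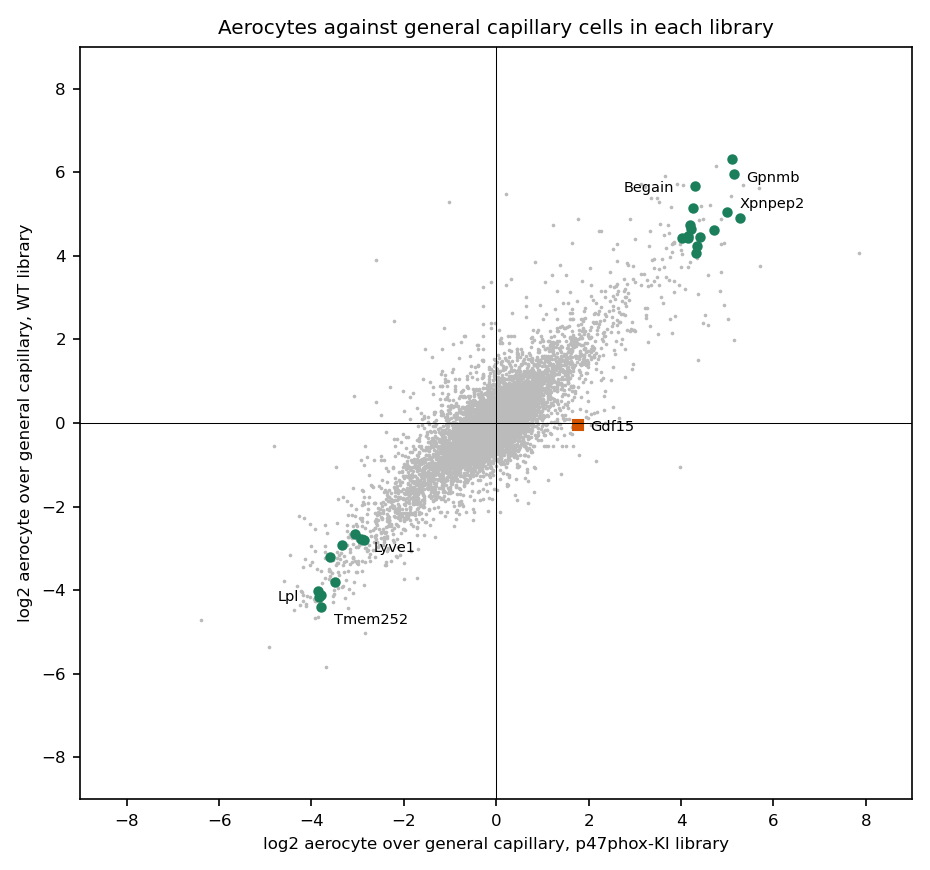
Log2 ratio of aerocyte over general capillary CPM in the p47phox-KI library (x axis) and the WT library (y axis), 1 grey point per gene with at least 20 UMIs in aerocytes, with the 25 genes of highest and lowest ratio in green and Gdf15 as an orange square. Most genes lie along the diagonal, while Gdf15 stands at 1.77 in KI and −0.05 in WT.

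Between the genotypes, most genes of aerocytes stood close together. Of 11643 genes with at least 20 UMIs in aerocytes, 1199 (10.3%) were more than 0.5 higher in KI on the log2 scale and 903 (7.76%) more than 0.5 lower. In the text below, higher and lower refer to these limits. Aerocyte counts for a gene list are to be read against these shares of all genes. In general capillary cells, 1636 of 11660 genes were higher in KI and 875 lower, and list counts in those cells are to be read against these. In aerocytes the median log2 ratio of KI over WT was 0.036, and 81.95% of genes lay within 0.5 of 0. Only 193 genes were higher with a whole interval above 0.5, and 183 were lower with a whole interval under −0.5. A shift among states within the aerocytes and a shift in every cell cannot be told apart from such sums.

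Aerocyte markers had small ratios with 1 exception. Of 17 aerocyte markers, 16 lay within 0.5, beside 81.95% of all genes, and 1 was higher in KI, with a median of −0.18. Since 3 of them, Car4, Ednrb and Fibin, chose the cells, the count is a description and no measure of identity. The ratios were −0.40 [−0.48, −0.33] for Apln, −0.42 [−0.46, −0.39] for Kdr, −0.23 [−0.34, −0.12] for Tmeff2 and −0.02 [−0.03, −0.01] for Igfbp7, a secreted protein that binds insulin-like growth factors. Tbx2 (chromosome 11, 85832551 to 85841948, plus strand), a T-box transcription factor, was the exception. It stood at 831.9 CPM in KI and 531.5 CPM in WT aerocytes, a log2 ratio of 0.65 [0.59, 0.70]. With each cell thinned to 2000 UMIs, Tbx2 was found in 76.6% of KI and 62.93% of WT aerocytes, against 5.91% and 7.268% of KI and WT general capillary cells. Fibroblasts also carried it, at 52.38% in KI and 44.37% in WT, the same order as in aerocytes, while epithelial cells gave 2.088% in KI and 1.912% in WT. Its relative Tbx3 stood at 881.2 CPM in KI and 585 CPM in WT aerocytes (0.59 [0.54, 0.65]). In general capillary cells the ratios were 0.21 [−0.05, 0.48] for Tbx2 and 0.23 [0.10, 0.37] for Tbx3.

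Among 20 measured endothelial transcription factors, 8 were higher in KI aerocytes and none lower, beside 10.3% and 7.76% of all genes. Their median was 0.074. In general capillary cells 4 were higher and 1 lower, beside 1636 and 875 of 11660 genes, with a median of 0.20. Hey1, a Notch target, was furthest at 1.13, from 115 UMIs in KI and 56 in WT, and read 0.45 with thinned cells. Sox18, a regulator of vessel formation, stood at 104.6 CPM in KI and 49.19 CPM in WT aerocytes (1.09 [0.91, 1.27]), and at 1.16 in general capillary cells. Id1 stood at 746.1 CPM in KI and 440.4 CPM in WT (0.76 [0.70, 0.82]), and Id3 at 592.2 CPM in KI and 405.2 CPM in WT (0.55 [0.48, 0.61]). Both are inhibitors of DNA binding that BMP signals induce. Klf2, which responds to blood flow, stood at 912.2 CPM in KI and 617.7 CPM in WT (0.56 [0.51, 0.62]). Sox17 stood just past the limit, at 0.50, and read 0.17 with thinned cells. Epas1, which encodes the oxygen-regulated factor HIF-2α, read −0.46 [−0.50, −0.43], inside the limit.

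The 12 highest ratios among well-expressed genes were led by Gadd45a and Irs1. Gadd45a (chromosome 6, 67035096 to 67037457, minus strand), a growth-arrest gene induced by stress, stood at 102.2 CPM in KI and 38.45 CPM in WT aerocytes, a log2 ratio of 1.41 [1.22, 1.61]. At 2000 UMIs per cell it was found in 15.48% of KI and 6.572% of WT aerocytes, against 5.078% and 3.036% of KI and WT general capillary cells and 12.76% and 10.9% of KI and WT epithelial cells. In fibroblasts the order was the opposite, at 5.91% in KI and 12.16% in WT. Irs1 (chromosome 1, 82233101 to 82291416, minus strand), the docking protein of the insulin receptor, stood at 66.63 CPM in KI and 25.63 CPM in WT aerocytes (1.38 [1.14, 1.62]). It was scarce in general capillary cells, at 9.404 CPM in KI and 3.574 CPM in WT.

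Some high genes act in lipid or one-carbon metabolism. Hilpda, a lipid droplet protein, stood at 466.3 CPM in KI and 210.1 CPM in WT aerocytes (1.15 [1.06, 1.24]), and at 0.47 [0.39, 0.56] in general capillary cells. Mthfd2, a mitochondrial folate enzyme, stood at 68.43 CPM in KI and 33.27 CPM in WT (1.04 [0.82, 1.26]). Lpl and the membrane skeleton gene Epb41 had ratios of 1.15 and 1.26, but both belong to general capillary cells, in which they were also higher (0.82 and 0.94). How far RNA of those cells entered the aerocyte values was not tested. The other high genes were the histone methyltransferase Setd1b (1.16), Rsrp1 (1.03), the adaptor Nck1 (0.99) and the cilium gene Cfap20 (0.95).

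The 12 lowest ratios included receptor, secreted and cytoskeletal genes. Nckap5 (chromosome 1, 125913620 to 126830799, minus strand) stood at 35.05 CPM in KI and 101.4 CPM in WT aerocytes (−1.53 [−1.74, −1.33]), and at −1.57 in general capillary cells. Rspo3, a secreted enhancer of WNT signals, stood at 19.53 CPM in KI and 50.74 CPM in WT aerocytes (−1.37 [−1.67, −1.10]) and at 1.343 CPM in KI and 1.317 CPM in WT general capillary cells. Ackr3 (chromosome 1, 90203980 to 90216751, plus strand), the scavenging receptor of the chemokine CXCL12 and of adrenomedullin, stood at 73.14 CPM in KI and 178.2 CPM in WT aerocytes (−1.28 [−1.43, −1.14]). It also read −1.14 in general capillary cells, where its level was higher than in aerocytes in both libraries. Tln2, a talin that links integrins to actin, stood at 37.26 CPM in KI and 74.43 CPM in WT aerocytes, and its log2 ratio in general capillary cells was 0.67 [0.01, 1.38]. Sh3pxd2a, the podosome scaffold TKS5, read −0.96, and Klf3, a transcriptional repressor, −0.94. The remaining low genes were Fbxw10 (−1.08), the linker histone Hist1h1c (−0.97), Elmsan1 (−0.95) and Tppp3 (−0.92), besides Tnfaip3 and Bcl3 of the NF-kB group.

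**Figure D3:**
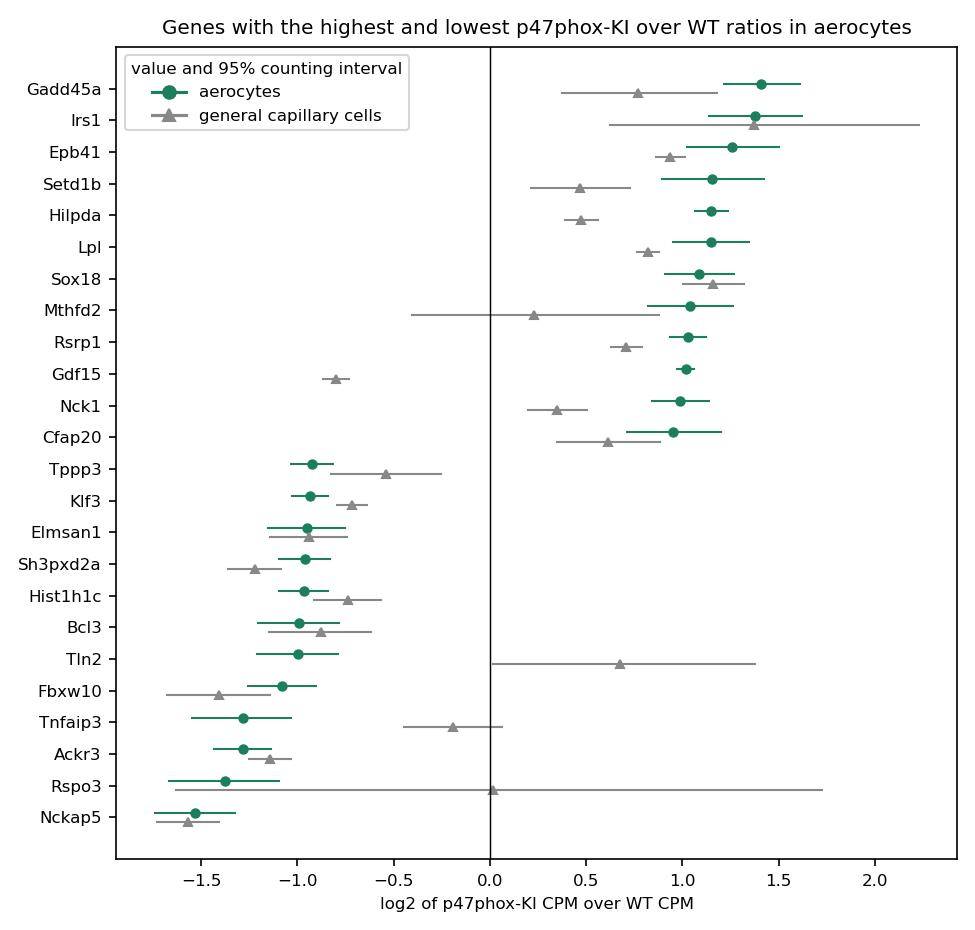
Log2 ratio of p47phox-KI over WT CPM with its 95% counting interval, in aerocytes (green circles) and general capillary cells (grey triangles), for the 12 highest and 12 lowest aerocyte ratios. Most pairs lie on the same side of 0; Gdf15 stands at 1.02 in aerocytes and −0.80 in general capillary cells.

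Gdf15 was higher in KI aerocytes, while its level in the other endothelial classes was lower in KI. Gdf15 (chromosome 8, 70629393 to 70632456, minus strand) encodes a secreted cytokine of the TGF-beta superfamily that many cells make under stress. It stood at 1640 CPM in KI and 810.3 CPM in WT aerocytes, a log2 ratio of 1.02 [0.97, 1.06], and was the most deeply counted of the high genes, with 11836 UMIs in KI and 6260 in WT. In general capillary cells it stood at 481.1 CPM in KI and 837 CPM in WT (−0.80 [−0.87, −0.73]). In arterial-type cells (Gja5 and Bmx; 74 KI and 70 WT cells) the levels were 331.9 CPM in KI and 520.4 CPM in WT, and in Vwf-rich cells (555 KI and 934 WT cells) 360.4 CPM in KI and 679.6 CPM in WT. The aerocyte level thus exceeded that of general capillary cells in KI, whereas in WT the pair stood close together.

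Thinning left the same picture for Gdf15. At 2000 UMIs per cell it was found in 64.49% [61.88, 67.03] of 1363 KI and 49.04% [46.57, 51.51] of 1613 WT aerocytes. Before thinning the shares were 71.43% in KI and 57.66% in WT. General capillary cells gave 37.49% [34.6, 40.45] in KI and 48.76% [45.75, 51.78] in WT. In fibroblasts, at 5.33% in KI and 4.398% in WT, few cells held it.

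Srxn1 also had ratios past the limit in opposite directions in aerocytes and general capillary cells. It belongs to the redox genes under the factor NRF2. Srxn1 (chromosome 2, 152105516 to 152111376, plus strand) encodes sulfiredoxin, which restores oxidised peroxiredoxins. It stood at 250.3 CPM in KI and 165 CPM in WT aerocytes (0.60 [0.50, 0.71]), and at 50.55 CPM in KI and 77.5 CPM in WT general capillary cells (−0.62 [−0.84, −0.40]). Levels were also lower in KI in arterial-type cells (88.19 CPM in KI and 169.7 CPM in WT), epithelial cells (70.33 and 141.6 CPM) and fibroblasts (22.55 and 45.88 CPM). Aerocytes were the class with the highest Srxn1 level in the KI library among those given here.

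Nqo1, a quinone reductase, had the highest ratio of the redox list in aerocytes, at 72.17 CPM in KI and 43.36 CPM in WT (0.73 [0.53, 0.94]). Hmox1, the haem-degrading oxygenase, stood at 118.3 CPM in KI and 86.86 CPM in WT aerocytes (0.45 [0.30, 0.59]), and at 46.18 CPM in KI and 88.22 CPM in WT general capillary cells (−0.93 [−1.15, −0.72]). Txnrd1, thioredoxin reductase, read 0.15 [0.01, 0.28] in aerocytes and −0.79 [−0.93, −0.65] in general capillary cells. Gclm, a subunit of the enzyme that starts glutathione synthesis, read 0.48 [0.41, 0.54] in aerocytes and −0.17 in general capillary cells. The cystine importer Slc7a11 went the other way in both, at −0.83 [−1.20, −0.47] in aerocytes and −2.28 in general capillary cells. Over the whole redox list, 2 of 25 measured members were higher and 2 lower in aerocytes, shares near the background, with a median of 0.078. In general capillary cells none was higher and 4 were lower, beside 1636 and 875 of 11660 genes, and the median was −0.13.

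The promoter of Srxn1 is shown because its direction separated the cell types. The run gives 250 bases before to 50 after the annotated start (RefSeq, GRCm38.p6, chr2:152105274-152105573, plus strand), and capitals mark the antioxidant response element TGANTCAGC, searched on both strands. The match lies 45 bases before the start. It was found in 1.187% of 32851 promoters, and in 2 of the 19 redox genes with a promoter in the table. A match is a string of letters and no evidence of binding.
Srxn1: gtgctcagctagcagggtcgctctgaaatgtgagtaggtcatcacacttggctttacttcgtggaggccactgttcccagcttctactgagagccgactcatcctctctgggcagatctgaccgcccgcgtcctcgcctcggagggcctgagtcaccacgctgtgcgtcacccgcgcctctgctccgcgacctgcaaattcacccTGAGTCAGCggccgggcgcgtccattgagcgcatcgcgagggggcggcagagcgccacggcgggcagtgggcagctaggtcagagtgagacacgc

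Other genes with large differences in ratio between the cell types lay inside the limit in 1 of them. Cebpb, a stress-responsive transcription factor, read −0.33 in aerocytes and −1.36 in general capillary cells, and St6galnac4, a sialyltransferase, 0.12 and −0.79. In the other direction, Sh3tc1 read −0.17 in aerocytes and 1.09 in general capillary cells, Paqr7, a progestin receptor, 0.09 and 1.11, and Slc16a9, a monocarboxylate transporter, −0.03 and 0.98. The beta-arrestin gene Arrb1 read −0.14 and 0.84. Ripply3 and Ypel3 had opposite signs: Ripply3 read −0.80 [−0.93, −0.67] in aerocytes and 0.41 [0.25, 0.57] in general capillary cells, and Ypel3 −0.59 and 0.42. These differences were not tested. The general capillary class was not divided into states, and its Inhbb level, 88.33 CPM in KI and 181.9 CPM in WT, differed between the libraries. How far its makeup entered the contrast was not tested.

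**Figure D4:**
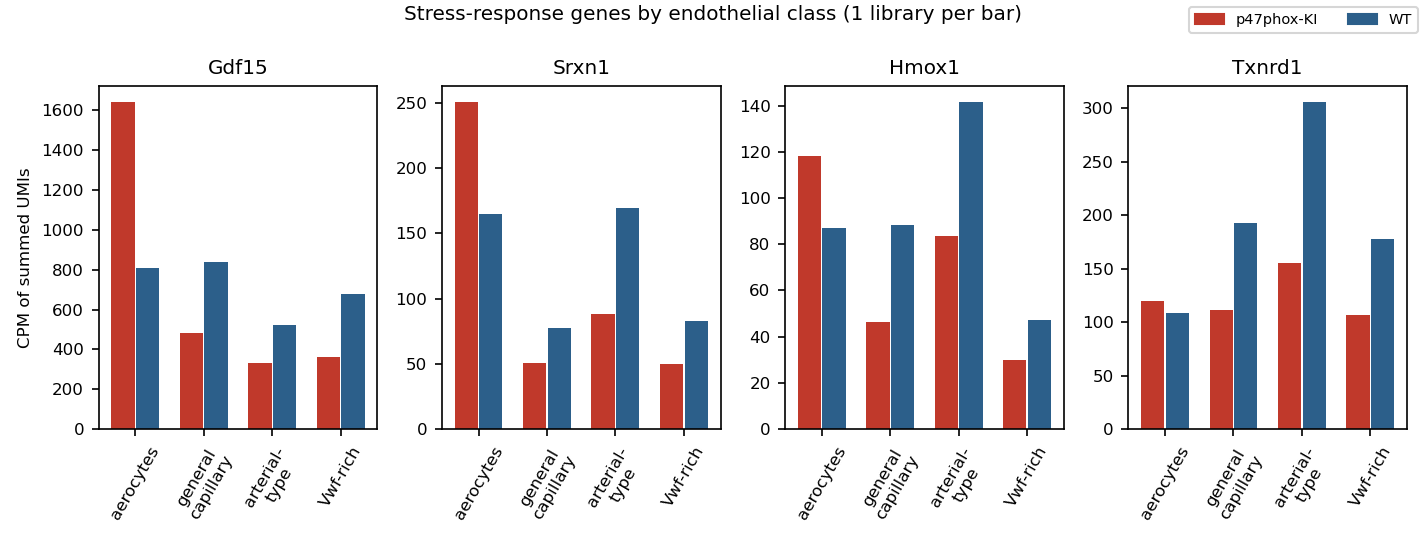
CPM of Gdf15, Srxn1, Hmox1 and Txnrd1 in aerocytes, general capillary cells, arterial-type cells and Vwf-rich cells of the p47phox-KI (red, left) and WT (blue, right) libraries, 1 library per bar. For Gdf15 the KI bar is the taller one in aerocytes (1640 against 810.3 CPM) and the shorter one in the other 3 classes.

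NF-kB and cytokine response genes past the limit were all lower in KI aerocytes. Of 23 measured members of that list, 6 were lower and none higher, against a background of 7.76% lower, and the median was −0.32; in general capillary cells the median was −0.18. Traf1 was furthest at −1.56, from 6 UMIs in KI and 20 in WT, and turned to 0.059 with thinned cells. Tnfaip3 (chromosome 10, 19000910 to 19015657, minus strand) encodes A20, which switches NF-kB signals off. It stood at 24.1 CPM in KI and 58.77 CPM in WT aerocytes (−1.28 [−1.55, −1.03]), and read −0.19 [−0.44, 0.06] in general capillary cells. At 2000 UMIs per cell it was found in 4.182% of KI and 9.423% of WT aerocytes, and in 5.562% of KI and 5.692% of WT fibroblasts. Rel, an NF-kB subunit, read −1.27 [−1.65, −0.91] in aerocytes and 0.51 [0.26, 0.78] in general capillary cells. Tnfaip2 read −1.08 from 9 UMIs in KI and 21 in WT. Bcl3, a nuclear cofactor of NF-kB, read −0.99, and Birc3, an inhibitor of apoptosis, −0.71. The most abundant responders were closer together. Nfkbia, the inhibitor IκBα, stood at 769.9 CPM in KI and 956 CPM in WT, and Icam1, a leukocyte adhesion molecule, at 1036 CPM in KI and 1102 CPM in WT. Neutrophil markers, at 2.493 CPM in KI and 139.5 CPM in WT, had the same order as these ratios, and their part was not tested.

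The Tnfaip3 promoter (RefSeq, GRCm38.p6, chr10:19015361-19015660, minus strand) is shown for the NF-kB site GGGNNTTTCC, in capitals, which lies on the opposite strand and starts 12 bases before this start. The motif was found in 1.629% of promoters on either strand, and in 5 of the 19 list members with a promoter in the table: Tnfaip3, Nfkbia, Nfkb2, Rel and Il6.
Tnfaip3: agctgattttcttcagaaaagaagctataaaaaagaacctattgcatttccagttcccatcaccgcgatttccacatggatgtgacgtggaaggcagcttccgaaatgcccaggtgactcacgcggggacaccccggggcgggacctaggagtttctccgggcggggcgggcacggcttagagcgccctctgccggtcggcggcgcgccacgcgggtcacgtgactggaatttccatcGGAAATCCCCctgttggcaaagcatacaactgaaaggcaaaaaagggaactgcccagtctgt

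A pair of retinoid genes had the lowest ratios among members of the functional gene lists with more than 100 UMIs. Retinoic acid, made from vitamin A, binds nuclear receptors. Cells limit it by breaking it down and by reducing retinal, its precursor, to retinol. Cyp26b1 (chromosome 6, 84571414 to 84593908, minus strand), which breaks retinoic acid down, stood at 3.879 CPM in KI and 17.35 CPM in WT aerocytes, from 28 and 134 UMIs (−2.14 [−2.80, −1.56]). It was more abundant in general capillary cells, at 19.82 CPM in KI and 139 CPM in WT (−2.81). The thinned share in KI was 0.5869% [0.2537, 1.153] in aerocytes, 0.6952% [0.2556, 1.507] in fibroblasts and 0.232% in epithelial cells. In WT these shares were 2.79%, 1.294% and 0%. The KI aerocyte level was thus no higher than that of fibroblasts and rested on few cells, and a background level was not measured. Rarb (chromosome 14, 16430839 to 16819156, minus strand), the retinoic acid receptor beta, whose own gene is a classical retinoic acid target, stood at 4.017 CPM in KI and 14.5 CPM in WT aerocytes, from 29 and 112 UMIs (−1.83 [−2.49, −1.25]). Its thinned share in KI was 0.8804% [0.4557, 1.533] in aerocytes, 0.8111% in fibroblasts, 0.09234% in general capillary cells and 0% in epithelial cells. In WT these shares were 2.914%, 0.5175%, 0.368% and 0.5736%. The KI aerocyte share was thus close to that of fibroblasts and above the other 2 classes, and a background level was not measured. Dhrs3, which reduces retinal to retinol, stood at 146.3 CPM in KI and 254.2 CPM in WT aerocytes (−0.80 [−0.91, −0.69]), and at 16.62 CPM in KI and 21.26 CPM in WT general capillary cells.

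Other retinoid genes did not follow. Aldh1a1, which makes retinoic acid, read 0.68 [0.30, 1.07], or −0.015 with thinned cells, and the receptors Rarg and Rara read 0.52 and 0.42. Of 9 measured members, 4 were lower and 2 higher, beside 7.76% and 10.3% of all genes, with a median of −0.31, which turned to 0.12 without the highest doublet scores and to 0.052 when the cells' own CPM were averaged. The Rarb promoter (RefSeq, GRCm38.p6, chr14:16575427-16575726, minus strand) is shown because it carries the direct repeat bound by retinoic acid receptors, in capitals, 52 bases before this internal start. The search string, GNTCANNNNNNGNTCA on both strands, was found in 0.861% of promoters, and in 2 of the 11 list members in the table, Rarb and Cyp26a1.
Rarb: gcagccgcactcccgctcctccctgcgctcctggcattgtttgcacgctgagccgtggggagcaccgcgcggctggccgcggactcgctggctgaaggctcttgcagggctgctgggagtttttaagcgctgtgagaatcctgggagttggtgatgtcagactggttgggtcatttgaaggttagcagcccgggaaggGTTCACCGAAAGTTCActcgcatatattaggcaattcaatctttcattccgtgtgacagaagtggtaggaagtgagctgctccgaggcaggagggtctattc

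**Figure D5:**
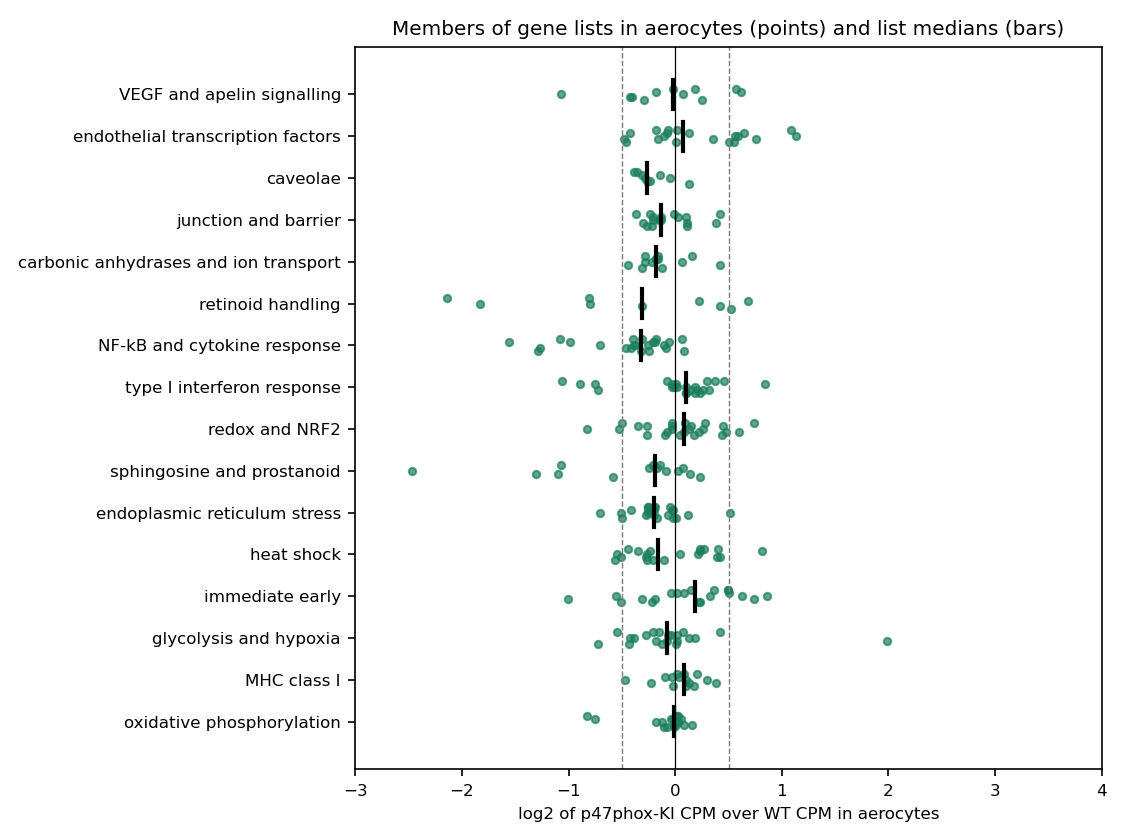
Log2 ratio of p47phox-KI over WT CPM in aerocytes for the members of 16 gene lists with at least 20 UMIs (points) and each list's median (black bars), with dashed lines at −0.5 and 0.5. Caveola, junction, ion transport and MHC class I members all lie between the lines, while NF-kB members past a line all lie on the left.

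Interferon-induced genes had different counts in the capillary cell types. Of 24 measured type I interferon genes, 1 was higher and 4 lower in aerocytes and 19 lay within the limit, as did 81.95% of all genes; the median was 0.098. By contrast, 15 were higher and none lower in general capillary cells, beside 1636 and 875 of 11660 genes, with a median of 0.63. The difference between the cell types was not tested. Oasl2, an antiviral gene, stood at 78.41 CPM in KI and 43.62 CPM in WT aerocytes (0.84 [0.65, 1.04]) and read 1.65 in general capillary cells. Ifit1 read 0.46 [0.18, 0.74] in aerocytes and 1.39 [1.17, 1.63] in general capillary cells. Cmpk2 (−0.90), Ifit2 (−0.75) and Rsad2 (−0.72, or −0.13 with thinned cells) were lower in KI aerocytes. A few WT cells carried much of these transcripts: the 21 WT aerocytes with the most Ifit2 held 58.93% of its UMIs, and 1 of them held 33 of 112. For Rsad2, 1 WT aerocyte held 144 of the 209 WT UMIs, against 118 UMIs in all KI aerocytes, so its ratio rested largely on that cell. Rsad2 was found in 77 of 1701 KI and 60 of 2069 WT aerocytes, Ifit2 in 55 and 67, and Cmpk2 in 70 and 113.

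Genes of caveolae, junctions, ion transport and MHC class I stood within the limit. All 9 measured caveola genes, all 17 junction genes, all 13 carbonic anhydrase and ion transport genes and all 15 MHC class I genes lay between −0.5 and 0.5, as did 81.95% of all genes. Their medians were −0.27, −0.13, −0.18 and 0.078. Cav1, the coat protein of caveolae, stood at 984.4 CPM in KI and 1259 CPM in WT (−0.35 [−0.40, −0.31]). Aqp1, a water channel, read −0.44, the same as in general capillary cells. Calcrl, the adrenomedullin receptor, read −0.37 in aerocytes and 0.26 in general capillary cells. In the VEGF and apelin list, 2 of 11 members were higher, beside 10.3% of all genes, Vegfb (0.62) and the Notch ligand Dll4 (0.57), and 1 was lower, Nrp2 (−1.07), from 29 UMIs in KI and 66 in WT.

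Stress and stimulus lists held members past the limit in both directions, beside 10.3% of all genes higher and 7.76% lower. Mt1 and Mt2, metal-binding metallothioneins that glucocorticoids and zinc induce, read −1.29 and −0.83 in aerocytes and −1.67 and −1.20 in general capillary cells. Mt1 stood at 165.8 CPM in KI and 405.6 CPM in WT aerocytes, and 1 WT cell held 237 of its 3133 UMIs. Ddit4, an inhibitor of mTOR that the same hormones induce, read 0.82. Among 20 immediate early genes, 4 were higher and 3 lower, with Egr1 at 0.86 [0.72, 1.00] and Fosl2 at −1.01 [−1.30, −0.72]. Among 20 heat-shock genes, Hspa1b was higher, at 0.81, and Hsp90aa1 (−0.57) and Stip1 (−0.54) were among the 3 lower ones. Hspa1b stood at 159.3 CPM in KI and 90.87 CPM in WT aerocytes, and the 21 richest WT cells held 68.66% of its WT UMIs. Of 22 endoplasmic reticulum stress genes, Herpud1 was higher (0.51) and Creld2 (−0.71) and Calr (−0.51) were among 3 lower ones.

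In single genes of other lists, Ankrd37, a hypoxia-induced gene, stood at 34.63 CPM in KI and 8.673 CPM in WT aerocytes (1.99 [1.60, 2.41]) and at 7.557 CPM in KI and 7.148 CPM in WT general capillary cells. The other 20 measured glycolysis and hypoxia genes gave 2 lower and none higher. In the p53 list, 1 of 17 was lower and 3 were higher, beside 10.3% of all genes higher: Gadd45a, Eda2r (0.93) and Gadd45b (0.61). Of 14 sphingosine and prostanoid genes, 5 were lower, beside 7.76% of all genes, and none higher. Alox5ap was furthest (−2.47) from 6 UMIs in 4 KI cells and 38 UMIs in 15 WT cells, and 1 WT cell held 11. Its ratio ranged from −4.46 to −1.015 under the alternatives. Ptges, the synthase of prostaglandin E, stood at 21.06 CPM in KI and 44.4 CPM in WT (−1.07 [−1.36, −0.80]). Spns2, the exporter of sphingosine-1-phosphate, read −0.59. Fabp4, a fatty acid carrier of general capillary cells, had the highest ratio of any list member, 3.68 (2.87 to 4.37 under the alternatives), but 23 KI aerocytes held all 149 of its UMIs and 1 cell held 68.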

How the data were processed

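Droplet single-cell RNA libraries of sorted lung cells were analysed, 1 from p47phox-KI and 1 from WT mice. The deposited files hold raw UMI counts per gene and barcode, per the file headers and their whole-number values. Tools given in the submitters' processing notes are R 3.5.3, Seurat 2.3.4 and Cell Ranger 2.0, with genome mm10; the headers name software 3.0.2. The KI library held 43445797 UMIs in 9120 barcodes and the WT library 43376713 in 10473, with at least 500 UMIs per barcode.

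Barcodes with at least 200 genes and at most 10% mitochondrial UMIs were kept, doublets included. Cell classes were chosen by raw UMI limits, so no clustering was used. Within each library, the UMIs of a class were added up and scaled to CPM. Ratios are log2 with 0.5 counts added, for genes with at least 20 UMIs. Intervals (95%, exact conditional binomial, or Clopper-Pearson for shares; scipy 1.17.1) cover counting error only. Ratios and intervals were tested on simulated sums with counting error only, so UMIs concentrated in few cells were not covered. Scrublet (scanpy 1.11.5) gave doublet scores, and the highest were marked at 0.8% per 1000 barcodes. For some shares, cells were thinned to 2000 UMIs, which left out 338 KI and 456 WT aerocytes.

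Named genes are the 12 highest and 12 lowest KI over WT ratios, the 15 highest and 10 lowest aerocyte over general capillary ratios, and the 6 largest differences between the cell types each way. They needed 50 CPM and a UMI in 10% of cells in either library, or 50 CPM in both cell types for the differences. Y-linked genes, Xist, Tsix, and mitochondrial, ribosomal protein and haemoglobin genes were left out. So were genes of the rule, unnamed models and genes more than 20 times lower than in a class of other cells. Members of 49 marker and gene lists were named furthest first or for their level. Some genes that the rules name are not reported here. The members and lists were chosen with earlier results of these data known. Gene positions come from GENCODE M21 and promoters from RefSeq. Alternatives covered cell filters, doublets, marker limits, depth, averaging, scaling, minimum counts, shared barcodes and, added after seeing the data, cells with haemoglobin UMIs.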

Additional observations from a re-analysis of the deposited data

Results flagged for a closer look

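Gdf15 and Srxn1 were picked out because their KI over WT ratios lay past 0.5 in opposite directions in aerocytes and general capillary cells, with both intervals off 0. The search covered genes with at least 50 CPM in both cell types of the same library; scarcer genes such as Rel and Tln2, also past 0.5 in opposite directions, were outside it. Gdf15 stood at 1.02 in aerocytes and −0.80 in general capillary cells. Under the alternatives it ranged from 0.98 to 1.04 in aerocytes and from −0.83 to −0.68 in general capillary cells. Srxn1 stood at 0.60 in aerocytes and −0.62 in general capillary cells, with ranges of 0.50 to 0.70 and −0.74 to −0.49. With 1 library per group, neither difference between the cell types was tested.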

How the results depend on the processing

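The aerocyte share of endothelial cells (42.9% in KI, 43.54% in WT) was 50.86% in KI and 51.24% in WT with at least 500 genes and at most 5% mitochondrial UMIs, and 40.35% and 41.57% with no cell filter. It was 39.75% in KI and 40.74% in WT with a marker sum of at least 5, 40.85% and 41.44% with cells thinned to 2000 UMIs, and 40.55% in KI with a marker sum at least 3 times the other. KI stood below WT in each of these pairs. The cause of these shifts was not tested. With at least 50 UMIs, 557 genes were lower in KI, and with no minimum count 3552 were higher and 3808 lower, since low counts scatter more. With no minimum, 1004 genes were higher and 1952 lower in aerocytes than in general capillary cells. Of 48 such counts, 43 stayed within 1.5 times the reported one. Of 1240 KI over WT ratios of named genes, 65 were marked as moved. Another 2, past the limit in the main setting, changed sign, both with cells thinned to 2000 UMIs: Traf1 to 0.059 and Aldh1a1 to −0.015. Of 500 aerocyte over general capillary ratios, 131 were marked as moved and none as reversed. The WT ratio of Begain, 5.68, ranged from 5.18 to 7.48. Of 420 list medians, 383 moved by less than 0.1. No paired analysis was possible because each group holds 1 library. Depth limits the low genes: a gene with 20 UMIs in aerocytes has an interval of more than 1 on the log2 scale.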

Other observations

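Markers shared with the neighbouring epithelium were read as well. Of 9 type 1 alveolar markers, 5 were higher in KI aerocytes and none lower, beside 10.3% and 7.76% of all genes. Their median was 0.69. In general capillary cells 6 were higher and none lower, beside 1636 and 875 of 11660 genes, with a median of 0.88. Hopx and Clic5, the most abundant ones in aerocytes, were inside the limit. Hopx, a homeodomain-only protein, stood at 1168 CPM in KI and 1266 CPM in WT aerocytes, against 343.1 and 313.8 CPM in KI and WT general capillary cells. Clic5, an intracellular chloride channel protein, stood at 862.1 CPM in KI and 1002 CPM in WT aerocytes, against 513.4 and 453.3 CPM. Ager, the most used type 1 marker, stood at 136.6 CPM in KI and 84.53 CPM in WT aerocytes and at 147.4 and 72.79 CPM in KI and WT general capillary cells, about level between the cell types in both libraries.

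Among clock genes, 3 of 15 measured members were higher in KI aerocytes and 2 lower, beside 10.3% and 7.76% of all genes, with Bhlhe40, a repressor of the clock, at −0.97 from 131 UMIs in KI and 276 in WT. Among 9 measured chemokine genes, 4 were lower and 1 higher, beside the same shares of all genes. Besides Ackr3, Cx3cl1, the membrane-bound fractalkine, read −0.52 from 469 UMIs in KI and 721 in WT.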
